A study of Mus musculus with 12 samples.

Results

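Tecta, Tectb, Ceacam16, Otog, Otogl and Otoa are the genes of 6 glycoproteins of the tectorial membrane, and their RNA levels were followed along the cochlea of mice with and without a homozygous Gjb2 mutation. They were the 6 rows of these names among 37432 genes in the expression table, and all 6 passed the filter on low values. Tecta reached 1 FPKM in 5 libraries: both homozygous apical, both homozygous middle and the second wild-type basal library. It therefore passed the filter only through homozygous groups in which it was high. The group was selected on measured values of the same libraries: the higher Tecta level in the homozygous apical turn and the lower Ceacam16 level in the homozygous basal turn. Those values are therefore described below without a test.

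RNA-seq was performed on cochleae of mice at P14, each cut into an apical, a middle and a basal piece (labelled apex, middle and base). Wild-type (WT) pieces were compared with pieces of Gjb2 35delG/35delG homozygous mice, which the labels mark ho and KO, with 2 libraries for each of the 6 groups and 12 in all. The 35delG allele removes a single base of Gjb2, the gene of the gap junction protein connexin 26. The homozygous mice were males made by tetraploid complementation from male embryonic stem cell lines that were derived from blastocysts of heterozygous parents, on a background close to C57BL/6J, born by cesarean section to be raised by ICR foster females, whereas age-matched wild-type males were bought in. Effects of the genotype and of how the mice were obtained therefore cannot be told apart. The labels call the libraries biological repeats and do not give the number of mice or cochleae behind each, so that p-values measure only the spread between these libraries.

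The tectorial membrane is an acellular gel that lies over the hair cells of the organ of Corti and couples sound-driven motion to their hair bundles. It is built from collagen fibrils set in a striated-sheet matrix, whose main non-collagenous parts are the tectorins alpha and beta (Tecta, Tectb) and the carcinoembryonic antigen family member Ceacam16. Otogelin (Otog) and otogelin-like (Otogl) are large mucin-like proteins of this and other acellular gels of the inner ear. Otoancorin (Otoa) sits where the membrane is anchored to the spiral limbus. The tectorins are known to be made mainly by the developing cochlear epithelium, and their transcription falls as the cochlea matures, whereas Ceacam16 comes on later.

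On the mouse build mm10, Tecta was placed on chromosome 9, minus strand, at positions 42329622 to 42399929 (ENSMUSG00000037705.13). Tectb lies on chromosome 19, plus strand, from 55180736 to 55196313 (ENSMUSG00000024979.13). Chromosome 7 holds Ceacam16 on the minus strand from 19852097 to 19861299 (ENSMUSG00000014686.8), Otog on the plus strand from 46240987 to 46311434 (ENSMUSG00000009487.10) and Otoa on the plus strand from 121083322 to 121163097 (ENSMUSG00000034990.15). Otogl lies on chromosome 10, minus strand, from 107760531 to 107912134 (ENSMUSG00000091455.4). For each gene the longest coding transcript of GENCODE vM21 was taken, with preference for transcripts that carry a consensus coding sequence (CCDS) tag. In these, the otogelins were the longest genes in coding exons, with 56 exons and 8733 coding bases for Otog and 58 exons and 6975 coding bases for Otogl. Tecta had 24 exons and 6465 coding bases, Otoa 29 exons and 3411 coding bases, Ceacam16 6 exons and 1278 coding bases, and Tectb 10 exons and 987 coding bases. Of the 6 genes, 3 shared their span with another listed gene, which matters most for Ceacam16. Gm19345, on the opposite strand from 19852003 to 19858350, covers most of Ceacam16, and without knowledge of strand in the counting the reads of the pair cannot be told apart. Gm47629 inside Tecta reached 0.112 scaled FPKM and Mir6715 inside Tectb reached 17.2.

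The upstream sequences of Tecta, Tectb and Otog are shown because these genes were all higher in the homozygous middle turn, as described below. Otogl was higher there too, but the promoter set held no window for it. Each run is the 250 bases before the RefSeq transcription start on build GRCm38.p6, written 5′ to 3′ on the strand of the gene. Tecta is from chr9:42399948-42400197 on the minus strand, the one of its RefSeq starts that lies 18 bases from the GENCODE start. Tectb is from chr19:55180476-55180725 and Otog from chr7:46240737-46240986, both on the plus strand. Capitals mark a match to one of the letters searched.
Tecta: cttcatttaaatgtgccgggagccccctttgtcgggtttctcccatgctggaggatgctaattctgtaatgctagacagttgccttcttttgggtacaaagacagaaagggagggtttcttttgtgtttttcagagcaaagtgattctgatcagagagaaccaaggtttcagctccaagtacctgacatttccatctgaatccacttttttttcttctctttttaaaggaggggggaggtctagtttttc
Tectb: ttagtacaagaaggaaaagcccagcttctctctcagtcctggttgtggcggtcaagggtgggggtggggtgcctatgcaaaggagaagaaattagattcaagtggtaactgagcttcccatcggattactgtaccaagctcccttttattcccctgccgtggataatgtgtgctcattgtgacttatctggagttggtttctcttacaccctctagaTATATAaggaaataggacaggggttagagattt
Otog: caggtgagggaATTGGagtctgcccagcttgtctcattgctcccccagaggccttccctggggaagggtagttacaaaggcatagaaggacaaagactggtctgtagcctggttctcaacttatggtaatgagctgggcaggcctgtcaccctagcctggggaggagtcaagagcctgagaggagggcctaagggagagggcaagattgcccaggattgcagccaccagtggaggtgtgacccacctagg
Both strands of each run were searched for TATAAA (the TATA box), its variant TATATA, the box known as CCAAT, the GC box GGGCGG, the SOX motif core AACAAT and the nuclear receptor half-site AGGTCA, letters that were chosen after the sequences had been seen. TATATA was found in the Tectb run, its first base at -33 from the start site, and 5.25% of the 32851 mouse RefSeq promoter windows of this length held it. The Otog run held CCAAT on the reverse strand, its first base at -239, a motif found in 33.8% of windows. None of the letters was found in the Tecta run, as in 26.5% of all windows. The other searched motifs occur in 12.4% (TATAAA), 32.7% (GGGCGG), 9.42% (AACAAT) and 14.0% (AGGTCA) of windows. The 3 runs therefore share none of the searched motifs, and GC content was 43.2% for Tecta, 46.0% for Tectb and 57.2% for Otog.

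Levels are given as scaled FPKM, the deposited fragments per kilobase of transcript and sequenced total, divided by a median-of-ratios factor of each library, which ranged from 0.917 to 1.06. FPKM hold no read counts, so the depth behind each value is unknown. Gjb2 itself does not check the labels, since its RNA spanned 140 to 434 scaled FPKM over the wild-type libraries and 58.6 to 451 over the homozygous ones. In the apex it was at 332 and 376 in homozygotes against 248 and 254 in wild-type. In the base it was at 126 and 58.6 against 434 and 256, and the middle groups overlapped. The study reported lower Gjb2 RNA in homozygous cochlea by qPCR. Several libraries stood apart in the cell types they held, as the plot of marker lists shows. The homozygous basal libraries summed to 8.87 and 10.6 scaled FPKM over 10 hair cell genes, with 7 of the 10 under 1 in both libraries, against 116 and 119 in the wild-type basal libraries. Otof, a hair cell synapse gene, was at 0.0982 and 0.109 in the homozygous base and between 9.42 and 61.7 in the other 10 libraries. The wild-type middle libraries were low in Slc26a5, the outer hair cell motor protein prestin, at 0.0255 and 0.876. In the wild-type base the libraries differed from each other. The second had 1048 scaled FPKM over 7 stria vascularis genes and the first 279. The first had only 7.78 over 7 neuron genes and the second 746. The homozygous basal libraries differed too, with 592 in the first and 171 in the second over the stria vascularis genes. Over 3 spiral ligament fibrocyte genes they had 2481 and 455.

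**Figure D1:**
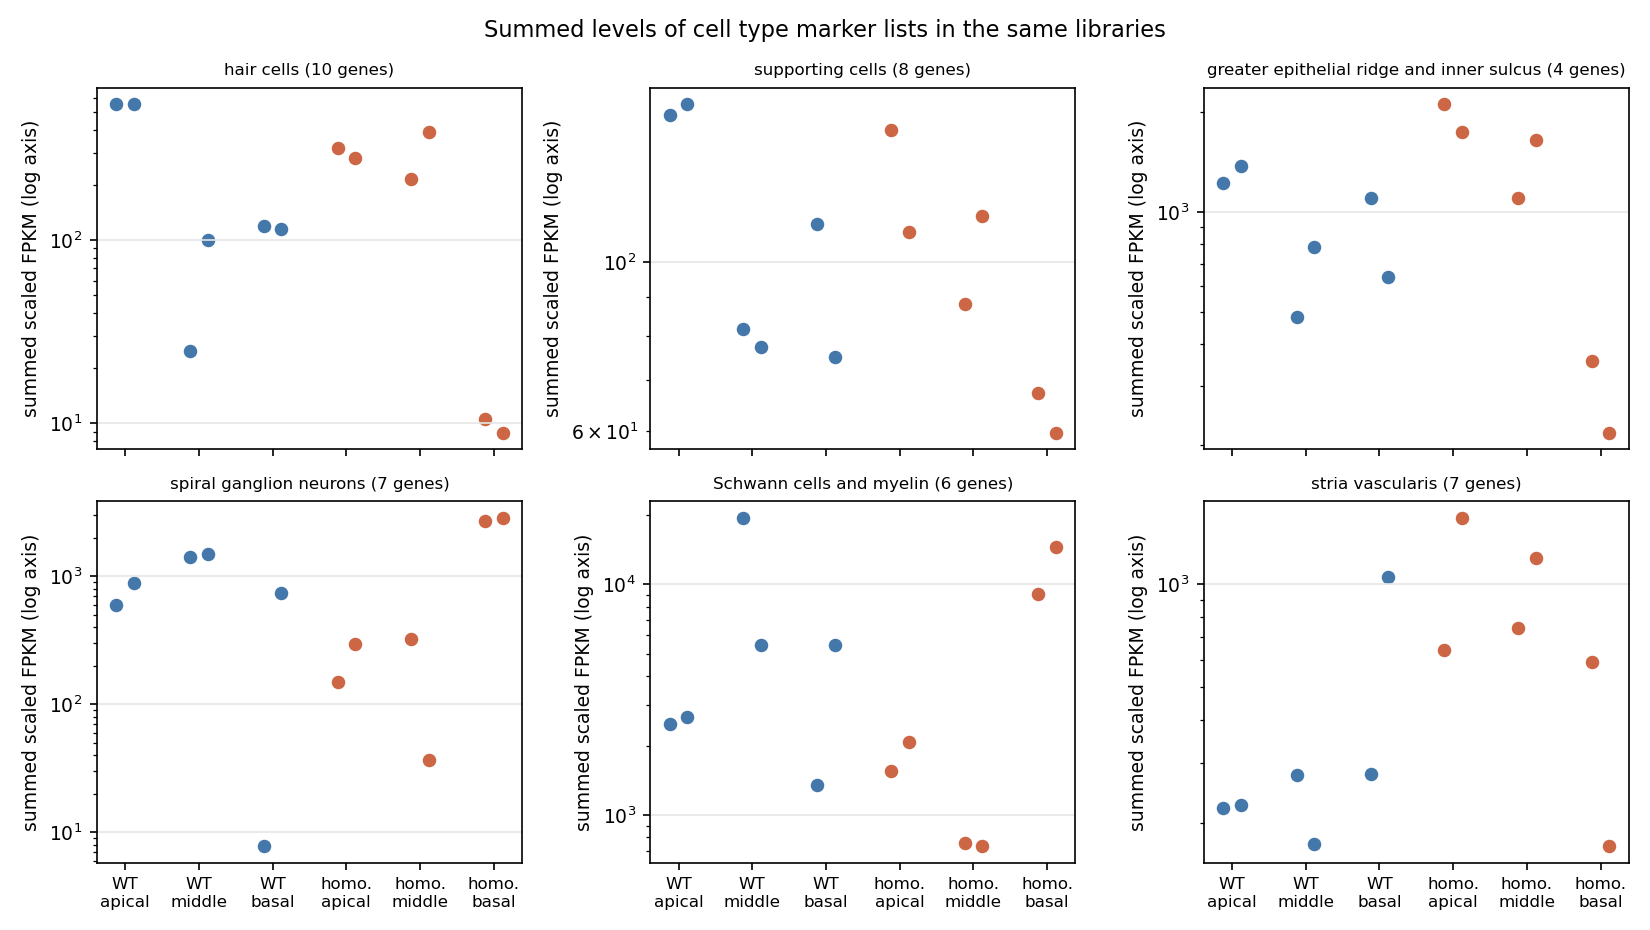
Summed scaled FPKM of 6 marker gene lists (log axis) in each of the 12 libraries, by group on the horizontal axis; blue points are wild-type and orange points homozygous libraries. The hair cell sum was lowest in the homozygous basal libraries (8.87 and 10.6), where the sum of 7 neuron genes was highest (2719 and 2883).

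Tecta was at 2.71 scaled FPKM or less in every wild-type library and was present in the apical and middle turns of homozygotes. Alpha-tectorin RNA was at 0.785 and 0.678 scaled FPKM in the wild-type apex, 0.142 and 0.129 in the middle, and 0.0626 and 2.71 in the base. In homozygotes it was at 81.3 and 47.8 in the apex, 6.78 and 11.9 in the middle, and 0.295 and 0.254 in the base. Both homozygous apical and both homozygous middle libraries thus lay above all 6 wild-type libraries, while the homozygous base lay between the 2 wild-type basal libraries. The ratio of mean scaled FPKM, homozygous to wild-type, was 88.3 in the apex, the comparison that selected the gene. In the order of group means the homozygous apex (64.6 ± 23.7, SD, n = 2) and middle (9.32 ± 3.59) came first, and the wild-type base (1.39 ± 1.87) overlapped the next group, the wild-type apex (0.731 ± 0.0760).

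Tectb, the gene of beta-tectorin, already had an apical level in wild-type mice and was higher still in the homozygous apex. It was at 63.1 and 84.7 scaled FPKM in the wild-type apex, 0.461 and 0.169 in the middle, and in the base listed at 0 in the first library and 10.6 in the second. The homozygous values were 368 and 269 in the apex, 29.7 and 49.9 in the middle, and 0.0853 and 0.0484 in the base. The apical and middle groups of the 2 genotypes did not overlap, and the basal groups did. The apical mean was 4.31 times the wild-type mean, a description with no test. The wild-type basal libraries differed for Tecta and Tectb alike, the second being the higher for both and also the one with more stria vascularis RNA, whose part in these values was not tested.

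Ceacam16 was the highest of the 6 genes per length in every wild-type library and was lower in all 3 homozygous turns. Its scaled FPKM was 2046 and 2168 in the wild-type apex, 1397 and 1172 in the middle, and 2268 and 397 in the base. The homozygous libraries had 127 and 101 in the apex, 282 and 443 in the middle, and 10.1 and 1.02 in the base. No homozygous library overlapped the wild-type libraries of the same turn, and the nearest pair was the lower wild-type and the higher homozygous middle library, 2.64 times apart. The wild-type mean was 18.5 times the homozygous mean in the apex, 3.54 times in the middle and 240 times in the base, the last being the comparison that selected the gene. Without the second wild-type basal library the wild-type basal level would be 2268, and without the first 397. The antisense gene Gm19345 was at 133 and 142 scaled FPKM in the wild-type apex, 35.3 and 57.0 in the middle and 101 and 21.4 in the base. Its homozygous values were 15.9 and 8.96, 32.8 and 65.6, and 4.19 and 2.97 in the same order of turns. Its apical and basal groups were lower in homozygotes without overlap, and its middle groups overlapped.

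Otog and Otogl, the otogelin pair, had overlapping apical levels in the 2 genotypes and were under 1 scaled FPKM in the homozygous base. Otog was at 54.6 and 50.6 scaled FPKM in the wild-type apex, 10.1 and 11.6 in the middle, and 15.5 and 24.1 in the base. In homozygotes Otog was at 63.9 and 33.1 in the apex, 23.4 and 39.9 in the middle, and 0.126 and 0.0539 in the base. The apical groups overlapped, the homozygous middle group lay above the wild-type one, and the homozygous base lay below every other library.

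Otogl was at 42.3 and 43.4 scaled FPKM in the wild-type apex, 2.04 and 3.82 in the middle, and 3.92 and 5.93 in the base. Its homozygous values were 62.8 and 37.0 in the apex, 12.8 and 17.5 in the middle, and 0.383 and 0.0469 in the base. The same arrangement of groups was seen as for Otog, with overlap in the apex only. The level of Otogl per 100 of Otog was 77.4 and 85.8 in the wild-type apex and 20.1 to 33.1 in the other wild-type libraries, and it was 98.3 and 112 in the homozygous apex and 54.7 and 43.8 in the homozygous middle. In the homozygous base, where both genes were under 1 scaled FPKM, it was 304 and 87.0.

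Otoa, which encodes the anchoring protein otoancorin, had the smallest difference of the 6 genes between genotypes in the middle turn. Otoa was at 161 and 139 scaled FPKM in the wild-type apex, 90.5 and 88.9 in the middle, and 192 and 32.1 in the base. The homozygous apex had 65.8 and 17.2, the middle 60.3 and 84.1, and the base 1.06 and 0.480. In each turn the homozygous libraries were below the wild-type libraries, but in the middle the gap between the groups was only 1.06-fold. Its order of groups by mean was the same as that of Ceacam16 throughout. For both genes the wild-type base overlapped the wild-type apex and middle, and the homozygous base was the lowest group.

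**Figure D2:**
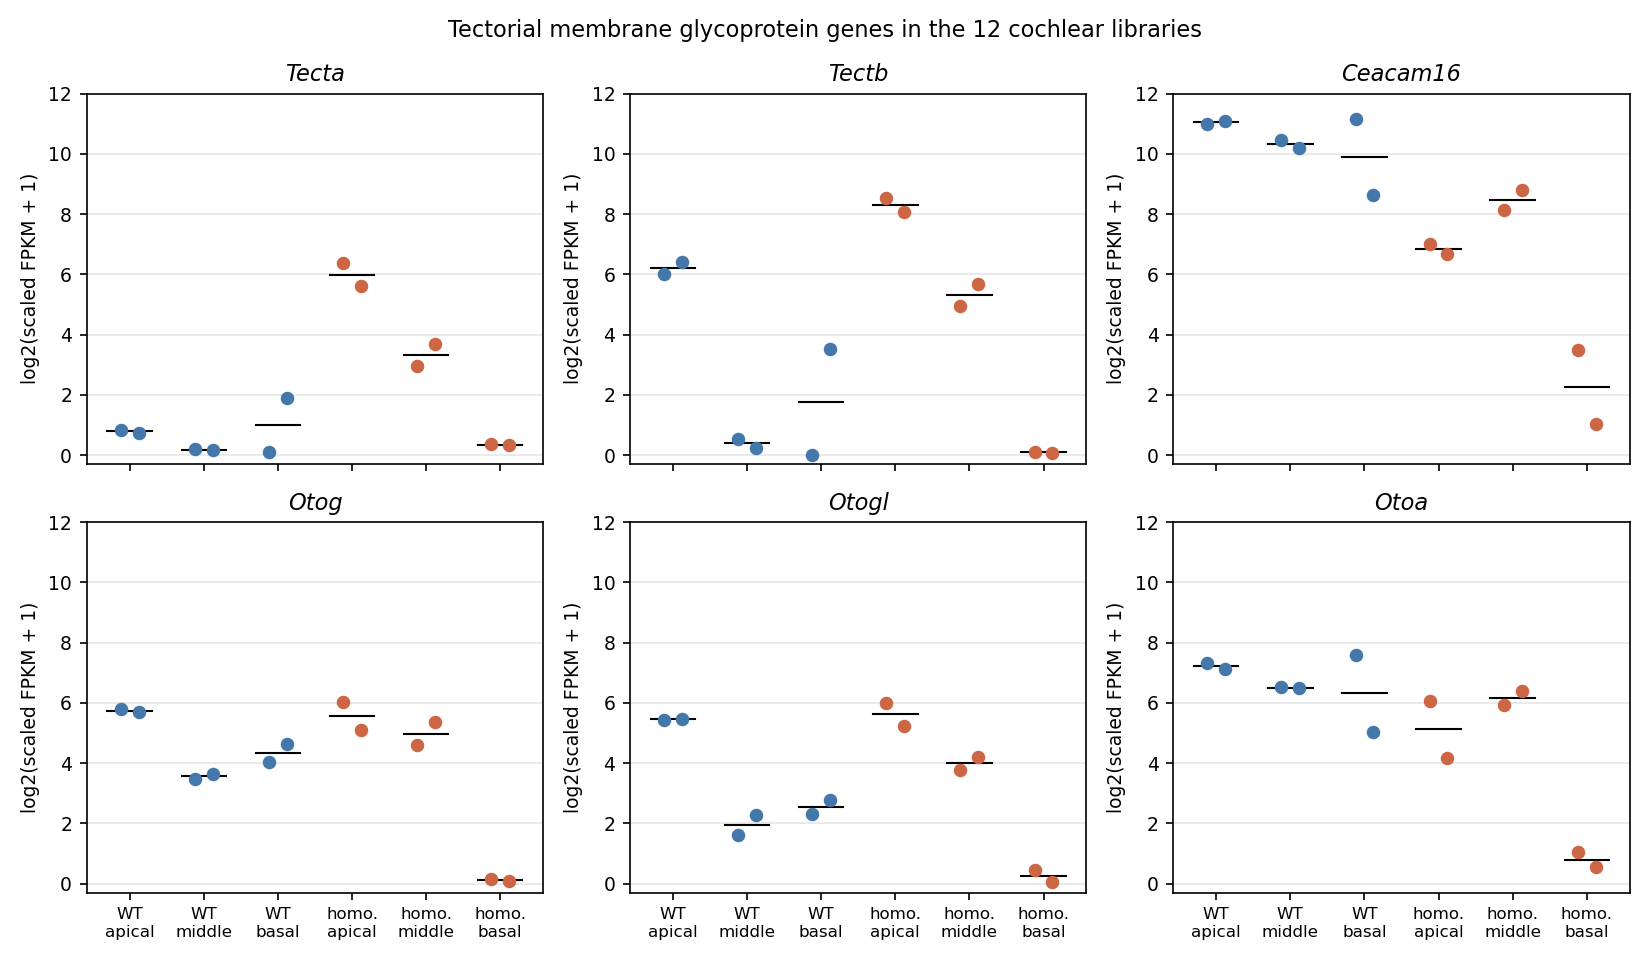
Levels of the 6 genes as log2(scaled FPKM + 1) in every library, by group on the horizontal axis; points are libraries (blue wild-type, orange homozygous) and lines are means of 2. Tecta and Tectb were highest in the homozygous apex, whereas Ceacam16 was highest in wild-type libraries and all 6 genes were near the bottom of their range in the homozygous base.

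Read by turn, the homozygous mean of log2(scaled FPKM + 1) was above the wild-type mean for 3 of the 6 genes in the apex and for 0 of 6 in the base. Over all 16215 genes tested, this was so for 7628 in the apex and 7831 in the base. The apical differences on this scale were 5.19 for Tecta, 2.09 for Tectb, 0.17 for Otogl, -0.19 for Otog, -2.11 for Otoa and -4.21 for Ceacam16. The basal differences were -0.64 for Tecta, -1.67 for Tectb, -2.28 for Otogl, -4.22 for Otog, -5.52 for Otoa and -7.65 for Ceacam16. Without the second wild-type basal library, 2 of the 6 were above in the base. In the base, 7 of 10 hair cell genes were under 1 scaled FPKM in both homozygous libraries. The ridge and inner sulcus genes summed to 357 and 217 scaled FPKM in the homozygous base against 1101 and 638 in wild-type. The 8 supporting cell genes summed to 67.4 and 59.7 against 112 and 75.1. The ridge and inner sulcus list holds Epyc, Crabp1, the mutated gene Gjb2 itself and its gap junction partner Gjb6. Crabp1 went against the sum in the base, at 3.40 and 2.97 in homozygotes against 1.02 and 0.563. It did so in the apex too, at 0.277 and 0.597 against 3.87 and 3.90. In bulk tissue fewer cells of a type and less RNA per cell cannot be told apart. In the apex hair cell genes summed to 555 and 552 scaled FPKM in the wild-type pieces, against 317 and 283 in the homozygous pieces, and the sums of 4 genes of the greater epithelial ridge and inner sulcus were 1219 and 1371 against 2112 and 1744. The apical stria vascularis sums were 221 and 226 against 641 and 1561, and neuron genes summed to 594 and 891 against 150 and 297. The part of these shifts in the apical values was not tested.

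The rule that selected the genes did not use the comparison of genotypes in the middle turn, and all 6 genes were tested there. The genes and tests were still chosen with earlier results of these data known. The middle turn is therefore not fully independent of the choice. Tecta, Tectb, Otogl and Otog had higher values in both homozygous libraries, and Ceacam16 and Otoa lower values, so that the groups of all 6 genes did not overlap, as was the case for 59.5% of the 16215 genes tested. A gene was called when limma gave a Benjamini-Hochberg adjusted p under 0.01, over all genes tested, and a fold change over 2. By this rule 0 of the 6 genes was called, beside 0.179% of all genes (29 of 16215). At an unadjusted p under 0.05, 4 of the 6 passed, beside 25.4% of all genes. At an adjusted p under 0.05 with a fold change over 2, 3 did, beside 2.93% of all genes. Tecta is among the genes that passed in both counts.

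The largest difference in the middle turn was that of Tectb, with a log2 difference of 4.92 ± 0.88 (SE, n = 2 and 2, limma adjusted p = 0.0343). Tecta followed with 3.14 ± 0.52 (limma adjusted p = 0.0263) and Otogl with 2.06 ± 0.32 (limma adjusted p = 0.0219). Since Tecta passed the filter only through homozygous groups in which it was high, its p-value is no independent support for a difference. The counts above and the median of the 6 genes below include Tecta, so they are no independent support either. The values of Otog, 1.42 ± 0.34 (limma adjusted p = 0.0542), and Ceacam16, -1.85 ± 0.88 (limma adjusted p = 0.224), were past neither threshold, and the 95% interval for Ceacam16, from -3.84 to 0.14, included 0. The interval for Otoa ran from -2.10 to 1.45 around -0.33 ± 0.78 (limma adjusted p = 0.828). All differences are on the log2(scaled FPKM + 1) scale, which understates the change of low genes such as Tecta, whose mean scaled FPKM was 68.9 times higher. The median difference of the 6 genes was 1.74, beside 0.04 over all genes tested. Tecta and Tectb passed the call when either wild-type basal library was left out of the shared estimate of spread, with unchanged differences.

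**Figure D3:**
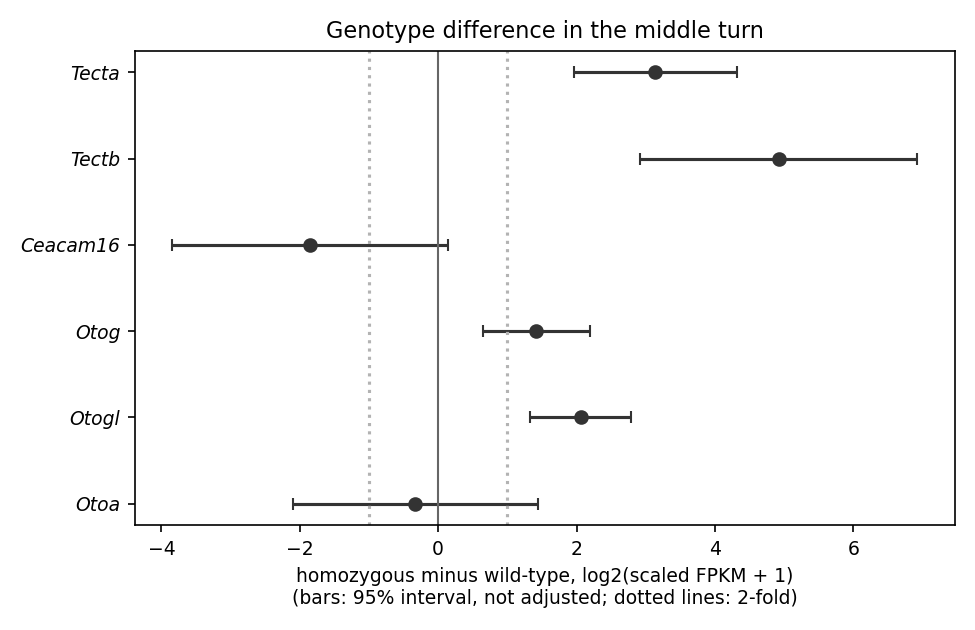
Difference between homozygous and wild-type middle turns for each gene on the log2(scaled FPKM + 1) scale; points are limma estimates from 2 libraries a group, bars are unadjusted 95% intervals and dotted lines mark 2-fold. The intervals of Tecta, Tectb, Otog and Otogl lay above 0, and those of Ceacam16 and Otoa included 0.

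Other cell types differed between the same middle libraries. All 7 stria vascularis genes had higher means in the homozygous middle, with a median log2 difference of 2.89 and 0 called, and the sums were 742 and 1187 against 278 and 174 scaled FPKM. All 7 neuron genes and all 6 Schwann cell genes had lower means, with medians of -3.55 and -3.38, and of these only Prx, a gene of myelinating Schwann cells, was called (-2.32, limma adjusted p = 0.00806). Of 10 hair cell genes 9 had higher means, with a median of 0.65, and Slc26a5 was called higher (2.93, limma adjusted p = 0.00889). The 10 genes summed to 216 and 390 scaled FPKM in the homozygous middle against 24.8 and 99.7 in the wild-type middle. Of 7 supporting cell genes tested, 4 had higher means and 0 was called, with a median of 0.87. Of 4 greater epithelial ridge and inner sulcus genes 3 had higher means, and Crabp1, a retinoic acid binding protein, was called lower (-1.97, limma adjusted p = 0.00889). The 4 genes summed to 1099 and 1647 scaled FPKM in the homozygous middle against 483 and 785 in the wild-type middle. Over all genes, 0.179% were called in this contrast in either direction. The part of these differences in tissue make-up in the values of the 6 glycoprotein genes was not tested.

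Along the wild-type cochlea, the otogelins and Tectb had higher values in the apex than in the middle. Otogl, with a log2 difference of 3.52 ± 0.32 (limma adjusted p = 0.00486), was the 1 called among the 5 genes tested in this contrast, beside 0.0863% of all genes. Tectb (5.83 ± 0.88, limma adjusted p = 0.0339) and Otog (2.18 ± 0.34, limma adjusted p = 0.0404) were past 0.05 only (0.475% of all genes were under 0.05 with a fold change over 2), and Otoa (0.73 ± 0.78) and Ceacam16 (0.72 ± 0.88) past neither. The call of Otogl was lost in 12 of 24 alternative settings, among them both with a smaller pseudocount and those without either wild-type apical or middle library. Hair cell genes summed to 24.8 and 99.7 scaled FPKM in the wild-type middle against 555 and 552 in the apex, with all 10 higher in the apex, and the ridge and inner sulcus genes to 483 and 785 against 1219 and 1371. The part of these shifts in the differences between the turns was not tested. Between the wild-type apex and base, 0 of 4 genes tested was called, beside 0.0863% of all genes, and 3 of the 4 had an unadjusted p under 0.05, as had 20.3% of all genes. Otogl had the lowest adjusted p of these (2.91 ± 0.32, limma adjusted p = 0.0106). Otogl passed the call in this contrast without the second wild-type basal library. Between the wild-type middle and base, 0 of 5 was called, beside 0% of all genes, and 1 of the 5 had an unadjusted p under 0.05, beside 15.2% of all genes. The direction of that last contrast turned for Tecta, Tectb and Otoa without the second wild-type basal library.

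In homozygotes the levels were lower in the basal than in the middle pieces. All 5 genes tested were called higher in the middle than in the base, beside 4.66% of all genes in either direction. The log2 differences were 5.37 ± 0.78 for Otoa, 5.21 ± 0.88 for Tectb, 4.86 ± 0.34 for Otog, 3.73 ± 0.32 for Otogl and 2.97 ± 0.52 for Tecta (limma adjusted p from 0.00287 to 0.00818). The call of Tecta is no independent support, because it passed the filter only through the homozygous apical and middle groups. Ceacam16, not tested here because its basal level selected it, differed by 6.23. Between the homozygous apex and base all 4 genes tested were called higher in the apex, beside 4.06% of all genes, with 8.21 ± 0.88 for Tectb, 5.43 ± 0.34 for Otog, 5.35 ± 0.32 for Otogl and 4.32 ± 0.78 for Otoa (limma adjusted p from 0.000721 to 0.00969). The median of all genes was 0.06 and 0.01 in these contrasts, which share the homozygous basal libraries.

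These calls rested on the spread shared across all groups. With only the groups compared, 0 of the 5 and 1 of the 4 genes were called, and over all 16215 genes the calls fell likewise, from 756 to 0 and from 659 to 1. Without the second homozygous basal library none was called in either contrast, and without the first, 2 of the 5 and 3 of the 4 were. The middle-to-base count also fell to 0 without either wild-type apical library or without the first homozygous middle library, and to between 2 and 3 without any other single library outside the wild-type base. The apex-to-base count fell to 2 without any single apical library of either genotype. In each of these settings the values of all genes kept their sign. The same basal libraries had 7 of 10 hair cell genes under 1 scaled FPKM. Their sums over 6 Schwann cell genes were 9086 and 14425 scaled FPKM against 754 and 731 in the homozygous middle. The part of these shifts in the calls was not tested.

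Between the homozygous apex and middle, 0 of 5 genes tested was called, beside 0% of all genes, and 2 of the 5 had an unadjusted p under 0.05 (2.65% of all genes did). The values for Tectb (2.997 ± 0.88), Otogl (1.62 ± 0.32) and Otog (0.58 ± 0.34) were positive, whereas Ceacam16 and Otoa had negative differences of -1.63 ± 0.88 and -1.05 ± 0.78. The difference for Tecta, described without a test, was 2.66. Ceacam16 had its apical level above its middle level in wild-type libraries and below it in homozygous libraries, with no overlap in either.

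The make-up of the summed level of the 6 genes differed with genotype and turn. Ceacam16 was between 84.0% and 93.1% of the sum in the wild-type libraries. In the homozygous apex it was 16.5% and 19.9%, and Tectb was the main part with 47.8% and 53.3%, Tecta adding 10.6% and 9.46%. The homozygous middle lay between, with Ceacam16 at 67.9% and 68.6% and Tectb at 7.17% and 7.72%. Per 100 of Ceacam16 there were 3.08 and 3.90 of Tectb in the wild-type apex and 289 and 267 in the homozygous apex. Otoa per 100 of Ceacam16 was 6.39 to 8.48 in all 6 wild-type libraries, also in the basal pair whose levels of both genes differed, and 17.1 to 51.8 in the homozygous apical and middle libraries. The whole sum was 472 to 2486 scaled FPKM in wild-type libraries, 415 to 769 in the homozygous apex and middle, and 12.1 and 1.90 in the homozygous base, where shares rest on very low levels.

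**Figure D4:**
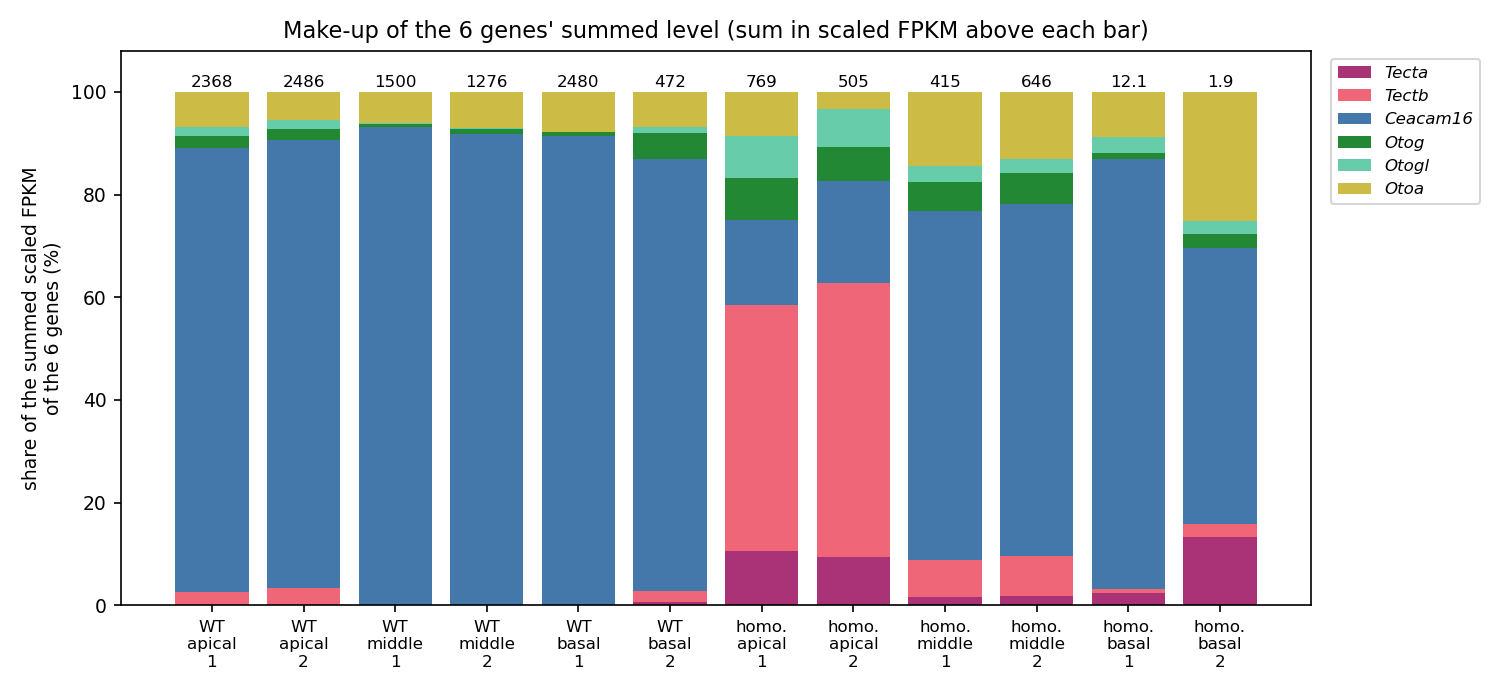
Share of each gene in the summed scaled FPKM of the 6 genes, in percent, for each library, with the sum above each bar. Ceacam16 made up 84.0% to 93.1% in wild-type libraries, and Tectb was the main part in the homozygous apex (47.8% and 53.3%).

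The remaining genes of the membrane were read from lists of its collagens and of related matrix glycoproteins. Of 6 collagen genes, 4 had higher means in the homozygous middle than in the wild-type middle and 0 was called, with a median log2 difference of 0.73. Col11a2, a fibril partner of type II collagen and the collagen of highest mean over the 12 libraries, was at 227 and 293 scaled FPKM in wild-type and 409 and 665 in homozygous middle libraries, and Col2a1 at 429 and 372 against 287 and 406. Between the homozygous middle and base all 6 collagens were higher in the middle and Col11a1 was called (2.0004, limma adjusted p = 0.00608). In this contrast 4.66% of all genes were called in either direction. These collagens are also made by cartilage and connective tissue of the cochlea.

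Of the 8 attachment and other inner ear matrix genes, 6 had higher means in the homozygous middle, with a median of 1.40 and 0 called. Strc encodes stereocilin, which joins outer hair cell bundles to the membrane, and was at 0.0455 and 0.352 scaled FPKM in the wild-type middle and 4.81 and 8.84 in the homozygous middle (2.67, limma adjusted p = 0.0138). Emilin2, a matrix glycoprotein of the elastin microfibril interface family, was at 23.0 and 20.8 against 386 and 326 (3.96, limma adjusted p = 0.0202). In the wild-type apex Strc was at 14.3 and 13.3, higher than in the middle by 3.64 (limma adjusted p = 0.00625). It was the 1 of the 8 called, beside 0.0863% of all genes. Between the homozygous middle and base 4 of the 8 were called higher in the middle, Strc, Otol1, Cthrc1 and Emilin2. Between the homozygous apex and base 3 were called higher in the apex, Strc, Otol1 and Emilin2. Over all genes, 4.66% and 4.06% were called in these contrasts in either direction. Of 12 zona pellucida domain genes other than the tectorins, 4 were tested and 0 was called in the middle turn.

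Among each other, the 6 genes fell along a gradient of likeness, given as Pearson's r of log2(scaled FPKM + 1) over the 12 libraries, which share groups and tissue make-up. Ceacam16 and Otoa had r = 0.958, Tectb and Otogl 0.934, Otog and Otogl 0.917, and Tecta and Tectb 0.813. Tecta had r = -0.133 with Ceacam16 and 0.06 with Otoa, and Tectb 0.179 with Ceacam16. The 12 libraries include the homozygous apical Tecta values and basal Ceacam16 values that selected the genes. The r of Tecta or Ceacam16 with another member is therefore a description only. Among the 9464 tested genes whose mean reached 5 scaled FPKM, the most like Tecta was Aqp5, a water channel (r = 0.958, then Tiparp and Evc2). Aqp5 was at 29.8 and 19.3 scaled FPKM in the homozygous apex, 3.23 and 5.92 in the homozygous middle and at most 1.63 in the wild-type apex and middle, with 0.648 and 5.70 in the wild-type base. The most like Tectb was Cep41 (0.979, then Gm13782 and Slc39a8), and the most like Ceacam16 was Degs2 (0.986, then Gpx2 and Kcnj16). Otoa was nearest to Mal2 (0.986, then Ntn4 and P2rx2), Otog to Gm9860 (0.966, then Ush1c and Smad6), and Otogl to Strc (0.962, then Otol1 and 4930426D05Rik).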

How the data were processed

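RNA of cochlear pieces was sequenced on a NovaSeq as 150 bp read pairs. Per the labels and the study's methods, the authors cleaned reads with fastp 0.20.0, aligned them to mm10 with STAR 2.7.3a, kept uniquely mapped reads and made the deposited FPKM values with StringTie 2.0. The annotation release and strandedness of counting are not given in the sources used here. FPKM summed to between 316425 and 408162 a library, held no read counts, and showed no whole-read steps, so a count test was not used and the precision is set by 2 libraries a group.

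FPKM were divided by median-of-ratios factors over 11552 genes at 1 FPKM or more in all libraries, and log2(value + 1) was fitted in limma 3.58.1 (R 4.3.3) with 6 group means and a trended prior over the 16215 genes with 1 FPKM or more in at least 2 libraries. Tests were two-sided with Benjamini-Hochberg adjustment. The scripts were tested on simulated data. The members, gene lists and tests were chosen with earlier results of these data known. Each of the 6 members is named, list genes were named by highest mean level or a call, at most 4 a list, or, for Strc, Otof, Emilin2 and Slc26a5, after their values were seen, Gm19345 for its overlap, and 3 most alike genes were named for each member. Alternatives were pseudocounts of 0.1 and 0.01, no filter or one of 5 FPKM, unscaled FPKM, equal sums, no trend, only the groups compared, a replicate block and leaving out each library. All 6 gene IDs with version matched GENCODE vM21, and promoter windows from RefSeq (GRCm38.p6) matched 4 of the 6 symbols.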

Additional observations from a re-analysis of the deposited data

Results flagged for a closer look

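The effects below had opposite directions in 2 settings with no overlap of libraries in either, and the difference itself was not tested in any of them. Only the 6 genes were searched, and the share of all genes with such a pattern was not taken. Groups without overlap were common, at 59.5% of the 16215 genes between genotypes in the middle turn, so the pattern is not shown to be particular to these genes. Otog was higher in homozygotes in the middle turn (log2 difference 1.42) and lower in the base (-4.22), a difference of 5.64 between turns. Seen along the cochlea, the same 5.64 separated its middle-minus-base difference in homozygotes (4.86) from that in wild-type mice (-0.78). Otogl did likewise, with 2.06 in the middle and -2.28 in the base, a difference of 4.34, and 3.73 against -0.61 along the cochlea. Ceacam16 had an apex-minus-middle difference of -1.63 in homozygotes and 0.72 in wild-type mice, a difference of -2.35. The base values of Otog and Otogl rest on homozygous basal libraries with 7 of 10 hair cell genes under 1 scaled FPKM.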

How the results depend on the processing

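Members called and genes called below use adjusted p under 0.01 and fold over 2 unless said. In the middle turn between genotypes 0 of 6 members was called in every fit that kept all libraries, and 3 at an adjusted p under 0.05. Over all genes the 29 calls became 19 and 16 with pseudocounts of 0.1 and 0.01, 15 without a filter, 17 with one of 5 FPKM, 16 with equal sums, 12 with the replicate block, 0 with only the groups compared and 475 at an adjusted p under 0.05. Leaving out 1 library gave 0 to 2 members and 5 to 49 genes, 49 without either wild-type basal library. In the wild-type apex against middle the 1 member called (14 genes in all) became 0 with either pseudocount (0 genes), the replicate block (5) or only the groups compared (1), 3 at an adjusted p under 0.05 (77), and 0 to 2 without 1 library (0 to 24). In the wild-type apex against base the 0 (14 genes) became 1 with deposited FPKM (16), equal sums (12) or an adjusted p under 0.05 (159), and 0 to 1 without 1 library (0 to 28). In homozygotes the 5 called between middle and base (756 genes) became 3 with either pseudocount (651 and 655), 2 without a filter (71), 3 with the replicate block (300), 0 with only the groups compared (0) and 0 to 5 without 1 library (0 to 1546). The 4 called between apex and base (659 genes) became 2 without a filter (13), 1 with only the groups compared (1) and 0 to 4 without 1 library (0 to 1521). Members higher in the homozygous base numbered 0 to 2 without 1 library.

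Without 1 library the wild-type middle-minus-base difference ranged from -1.708 to 0.09543 for Tecta, -3.15 to 0.3862 for Tectb and -1.092 to 1.455 for Otoa, and apex-minus-base from -0.3616 to 2.186 for Otoa; the sign turned only without the second wild-type basal library. No other tested difference of a member changed sign under the 24 alternatives. The causes were not tested. The replicate numbers were not used to pair the pieces in the main fit. Correlations of replicate differences within a genotype ran from -0.415 to 0.267. They were negative between the middle and each other turn and positive between apex and base (0.0499 in wild-type, 0.267 in homozygotes). Which pieces came from the same mouse is not known. With a replicate block in which the numbers of the middle pieces were exchanged, chosen after seeing the data, 0 members in the middle turn were called (31 genes). There were 5 between the homozygous middle and base (1193 genes, 756 in the main fit) and 4 between the homozygous apex and base (1186, 659 in the main fit). In the wild-type apex against base 1 was called (15 genes). Against deposited FPKM and equal sums the median of all genes in the middle turn moved from 0.04 to 0.17 and 0.13, and every member kept its sign relative to it. Depth is unknown, and 2 libraries a group limit every test.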
